A study of Mus musculus with 31 samples.

Results

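Collagen genes were followed in mouse lung over the first 24 h after oleic acid injury. The members are the genes that the array names Col, a number, a and a number, each read through its brightest probe, provided that this probe lay well above background on at least 15 of the 29 arrays analysed. The name matched 41 genes, and 29 of them passed, among 23199 features that passed the same filter. The members comprise 8 fibrillar collagens, 8 collagens of basement membranes, 2 beaded filament chains, 5 fibril-associated collagens and 6 others (anchoring, network-forming and transmembrane). The least detected member, Col8a1, was above background on 24 arrays, and the most detected gene outside the filter, Col25a1, on 13.

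Collagens are built from 3 polypeptide chains wound into a triple helix. Fibrillar types I, III and V form the tension-bearing fibrils of airways, vessels and septa and are made mainly by fibroblasts and smooth muscle cells. Type IV chains form the sheet of every basement membrane. In the alveolus a fused basement membrane separates endothelium from type 1 epithelium, and its network contains the α3, α4 and α5 chains besides the ubiquitous α1 and α2. Type VI forms beaded filaments next to basement membranes, and type VII forms the fibrils that anchor stratified and airway epithelia to the matrix beneath. Oleic acid given into a vein injures the endothelium and the barrier that these membranes carry.

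The animals were female C57BL/6 mice, 6 weeks old and anaesthetised with xylazine and ketamine. The injured groups received oleic acid at 1.2 µl per g in 200 µl through the tail vein, and the controls the same 200 µl of saline. Lungs were collected at 1, 1.5, 3, 4, 18 or 24 h, 1 mouse per array. The 29 arrays hold 13 saline lungs (3 at 1 h and 2 at each other time) and 16 oleic acid lungs (3 at 1, 4, 18 and 24 h and 2 at 1.5 and 3 h). No uninjected lung was in the design, so the injection and the anaesthesia are shared by both arms. The study asks how lung expression develops in this model of acute injury.

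Levels below are log2 signals after subtraction of each array's 75th percentile, and serve only to compare 1 probe between arrays. Of 31 arrays, replicate 3 of oleic acid at 1.5 h and replicate 2 at 3 h were left out for their spike-in slopes of 1.66 and 0.751, against 0.937 to 1.06 on the others. On these arrays 17 and 25 of the 29 members lay outside the range of all arrays kept. The share of spots above background was 51.2% to 66.2% on 24 arrays and 72.2% to 82.4% on 5, of which 3 came from saline lungs (at 1, 1.5 and 18 h) and 2 from oleic acid lungs (at 1 and 18 h). The arrays lay on 4 slides. Slide 1 held the 1 h lungs and 1 saline lung of 1.5 h, slide 4 all late lungs except saline 18 h, and saline 18 h shared slide 3 with both 4 h groups, so oleic acid and saline at 18 h cannot be told apart from slides 4 and 3. The lung markers Sftpc, Ager, Pecam1 and Scgb1a1 were above background on all 29 arrays, while the cartilage marker Matn1 was above background on 0 and Acan on 24. The precision is limited by the number of arrays.

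Levels were measured well for most of the family. The 25 members other than Col11a2, Col15a1, Col8a1 and Col9a2 were above background on every array, and 0 were saturated. The 12 genes outside the filter include the cartilage chains Col2a1 (8 arrays above background), Col9a1 (12), Col9a3 (0) and Col11a1 (0), and the hypertrophic cartilage collagen Col10a1 (5). They also include the fibrillar Col24a1 (4) and the fibril-associated Col19a1 (4) and Col22a1 (0). The others are the type VI chains Col6a4 (12) and Col6a6 (7), the transmembrane Col25a1 (13), and Col28a1 (3). All 8 genes of the basement membrane class passed.

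No collagen gene was called higher or lower in oleic acid lungs than in saline lungs at any time. With limma fitted across all features and a Benjamini-Hochberg adjusted p of 0.05 as threshold, 0 of 29 members passed at 1, 1.5, 3, 4, 18 and 24 h, in the mean over 1 to 4 h and in the mean over 18 and 24 h. Few features of any kind passed. Calls covered 0% of all 23199 features at 1, 1.5, 3 and 18 h and in both means, 0.0172% at 4 h (0.0129% higher and 0.00431% lower) and 0.0129% at 24 h (0.00431% higher and 0.00862% lower). An unadjusted p under 0.05 was reached by 3 members in the mean over 1 to 4 h, against 7.94% of all features, and by 1 in the mean over 18 and 24 h, against 2.85%. By single time it was reached by 3 members at 1 h (4.51% of features), 1 at 1.5 h (1.33%), 1 at 3 h (6.56%), 3 at 4 h (8.16%), 0 at 18 h (1.92%) and 2 at 24 h (4.87%). The difference between the late and early effects of oleic acid gave 0 called members and 0% of features, with 0 members and 1.13% of features at an unadjusted p under 0.05.

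The intervals limit how large an effect these arrays could have missed in the means over several times. For the mean over 1 to 4 h the 95% interval of the difference excluded a 2-fold change in either direction for 26 of 29 members, and lay within 0.5 log2 units of zero for 23. For 18 and 24 h these numbers were 24 and 21. The 3 members without an early limit were Col9a2, Col11a2 and Col15a1, all near background. Intervals at single times were wider. At 4 h those of Col4a3 (-0.11 to 1.77), Col8a1 (-0.55 to 1.23), Col27a1 (-0.41 to 1.57) and Col7a1 (-1.06 to -0.23) also crossed a 2-fold change. Fewer cells of a type and less RNA per cell cannot be told apart in whole lung.

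**Figure D1:**
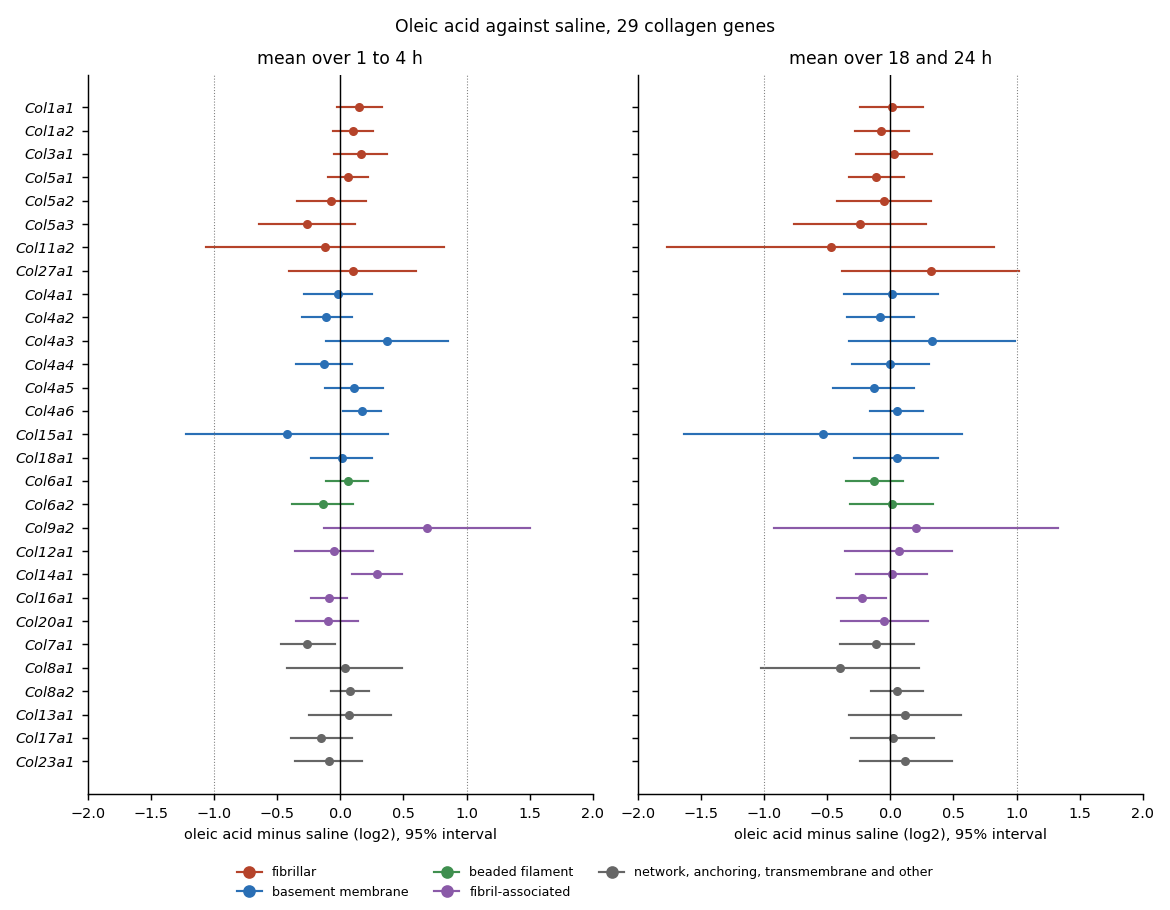
Oleic acid minus saline on the log2 scale for the 29 collagen genes, as the mean over 1 to 4 h (left) and over 18 and 24 h (right). Points are differences and bars moderated 95% intervals, coloured by class, with dotted lines at a 2-fold change; Col9a2, Col11a2 and Col15a1 have the intervals that cross these lines at 1 to 4 h.

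The type I and III chains, which make up the bulk of fibrils, gave 0 calls between treatments. Their differences were 0.19 to 0.38 at 1 h and 0.26 to 0.40 at 1.5 h, then -0.07 to 0.13 at 3 h and -0.17 to 0.01 at 4 h. Col1a1 lay between 4.00 and 4.51 (median 4.28) in 9 early saline lungs and between 4.11 and 4.78 (median 4.42) in 10 early oleic acid lungs. The groups overlapped through most of their range. The difference was 0.15 (95% interval -0.03 to 0.33, adjusted p = 0.634), and 0.01 (-0.24 to 0.26, adjusted p = 0.992) for 18 and 24 h. At 1.5 h both oleic acid lungs (4.55 and 4.78) exceeded both saline lungs (4.28 and 4.25), a difference of 0.40 with an adjusted p of 1.00.

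Col1a2, the second chain of type I, showed its widest gap at 1 h. Its log2 levels there were 6.14, 6.11 and 6.47 in saline and 6.63, 6.75 and 6.49 in oleic acid lungs, without overlap. At 1.5 h they were 6.47 and 6.23 against 6.64 and 6.57, again without overlap. Groups of 2 or 3 lungs can fail to overlap without a difference. The share of all features that do so is not given, for this gene or for others described in this way. At 3 h (6.42 and 6.24 against 6.35 and 6.18) and 4 h (6.44 and 6.40 against 6.26, 6.32 and 6.17) the oleic acid lungs were no longer the higher ones. At 18 h the levels were 6.34 and 5.99 against 6.26, 6.06 and 6.08, and at 24 h 6.34 and 6.39 against 6.06, 6.35 and 6.37. The 1 h difference of 0.38 (0.11 to 0.66) had the smallest unadjusted p of the family at that time, 0.0089, and an adjusted p of 0.968. Weighting the arrays by their quality brought it to an adjusted p of 0.0315 and Col4a6 at 1 h to 0.0324, in a fit that called 739 features at that time.

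Col3a1, the chain of type III, ran from 4.90 to 5.48 in early saline and from 5.12 to 5.74 in early oleic acid lungs. Its 3 saline lungs at 1 h were tightly grouped at 4.93, 4.90 and 4.95, below the oleic acid lungs at 5.29, 5.12 and 5.31. The difference over 1 to 4 h was 0.16 (-0.05 to 0.37, adjusted p = 0.649). Late, the saline lungs at 24 h spread from 4.75 to 5.55 and enclosed the oleic acid lungs (5.19, 5.44 and 5.39).

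The other fibrillar chains gave early differences from -0.26 (Col5a3, adjusted p = 0.671) to 0.10 (Col27a1, adjusted p = 0.924). Types V, XI and XXVII regulate or join fibrils rather than forming their bulk. Over the 8 fibrillar members 5 lay above zero at 1 to 4 h and 3 at 18 and 24 h, with medians of 0.08 and -0.06. The medians of all features were -0.02 and -0.06. Settings counted here include the main one and some that alter only p-values. The early fibrillar median was above zero under 16 of 17 settings and -0.04 with all 31 arrays. The late one was below zero under 13 of 16 and 0.19 with arrays centred on their median, which also moves the median of all features, from -0.06 to 0.18.

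The type IV chains had differences on both sides of zero. The ubiquitous chain Col4a1 had log2 levels of 4.02, 4.30 and 4.66 in saline and 4.63, 4.53 and 4.66 in oleic acid lungs at 1 h. At 1.5 h they were 4.99 and 4.89 against 5.04 and 4.65, at 3 h 4.88 and 4.44 against 4.75 and 4.21, and at 4 h 5.17 and 4.54 against 5.08, 4.42 and 4.78. At 18 h they were 4.61 and 4.34 against 4.59, 4.16 and 4.59, and at 24 h 4.01 and 4.58 against 4.28, 4.22 and 4.52. The groups overlapped at all 6 times. The difference was -0.02 (-0.29 to 0.25, adjusted p = 0.968) early and 0.01 (-0.37 to 0.38, adjusted p = 0.995) late.

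Col4a2, which pairs with it in the same molecule, differed by -0.11 (-0.30 to 0.09, adjusted p = 0.731) early and by -0.08 (-0.34 to 0.19, adjusted p = 0.947) late. Its levels ran from 4.50 to 5.34 (median 5.03) in the 13 saline lungs and from 4.64 to 5.17 (median 4.84) in the 16 oleic acid lungs.

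Col4a3, a chain of the alveolar and glomerular network, was the most variable type IV chain. Its levels at 4 h were 0.72 and 0.72 in saline and 1.81, 0.99 and 1.85 in oleic acid lungs, so the groups did not overlap there. At 1 h the values were 0.53, 0.51 and 1.45 against 1.15, 1.25 and 1.43, and at 24 h -0.09 and 1.23 against 1.26, 0.52 and 1.58. The 4 h difference was 0.83 (-0.11 to 1.77, adjusted p = 0.612). The early mean was 0.37 (-0.11 to 0.85, adjusted p = 0.645) and the late mean 0.33 (-0.33 to 0.99, adjusted p = 0.947). Its partner Col4a4 had 3 probes above background. Over 1 to 4 h the brightest gave -0.13 (-0.35 to 0.09), and the others -0.51 (-0.90 to -0.11) and -0.63 (-1.21 to -0.05). Over 18 and 24 h they gave 0.00, -0.30 and -0.27, with intervals that included zero. These intervals of single probes were not adjusted over features. At 3 h the brightest probe lay lower, at 3.47 and 3.42 in saline against 3.23 and 2.31 in oleic acid lungs (difference -0.68, adjusted p = 0.683). Without oleic acid 3 h replicate 1 that difference was -1.14 with an adjusted p of 0.019, resting on 1 oleic acid lung that is assumed to vary like the other groups.

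Over the 8 basement membrane members, 4 lay above zero early and 5 late, with medians of -0.01 and 0.01. The fibrillar median minus the basement membrane median was 0.08 early and -0.06 late. These differences between medians were not tested. Of 8 endothelial markers, 0 passed and 0 lay above zero at 1 to 4 h, with a median of -0.21, and their part in the basement membrane values was not tested.

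Outside these classes the largest difference was in Col9a2, a chain of the fibril-associated type IX of cartilage. At 4 h its levels were -4.15, 0.13 and -1.95 in oleic acid lungs against -4.15 and -3.93 in saline lungs. In that group 1 lung equalled a saline one, and the difference of 2.05 (0.46 to 3.64) had an adjusted p of 0.609. The probe was above background on 25 arrays, and normexp background correction brought the difference to 0.86. The 3 tested cartilage markers of 9 listed had mean deviations of -0.09, 0.05 and -0.25 on these 3 arrays, within the range of -1.24 to 1.02 over all arrays, and their part in the result was not tested.

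Col14a1, a fibril-associated collagen of fibroblasts, had the smallest unadjusted p in the mean over 1 to 4 h (0.00791, adjusted 0.621). It ran from 0.51 to 1.46 (median 1.16) in early saline and from 0.79 to 1.80 (median 1.31) in early oleic acid lungs, a difference of 0.29 (0.09 to 0.49). Late the difference was 0.01 (-0.27 to 0.29). Col16a1, another fibril-associated collagen, held the same place at 24 h. Its saline lungs stood at 4.02 and 3.84 and its oleic acid lungs at 3.39, 3.55 and 3.50, without overlap (difference -0.45, adjusted p = 0.806).

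**Figure D2:**
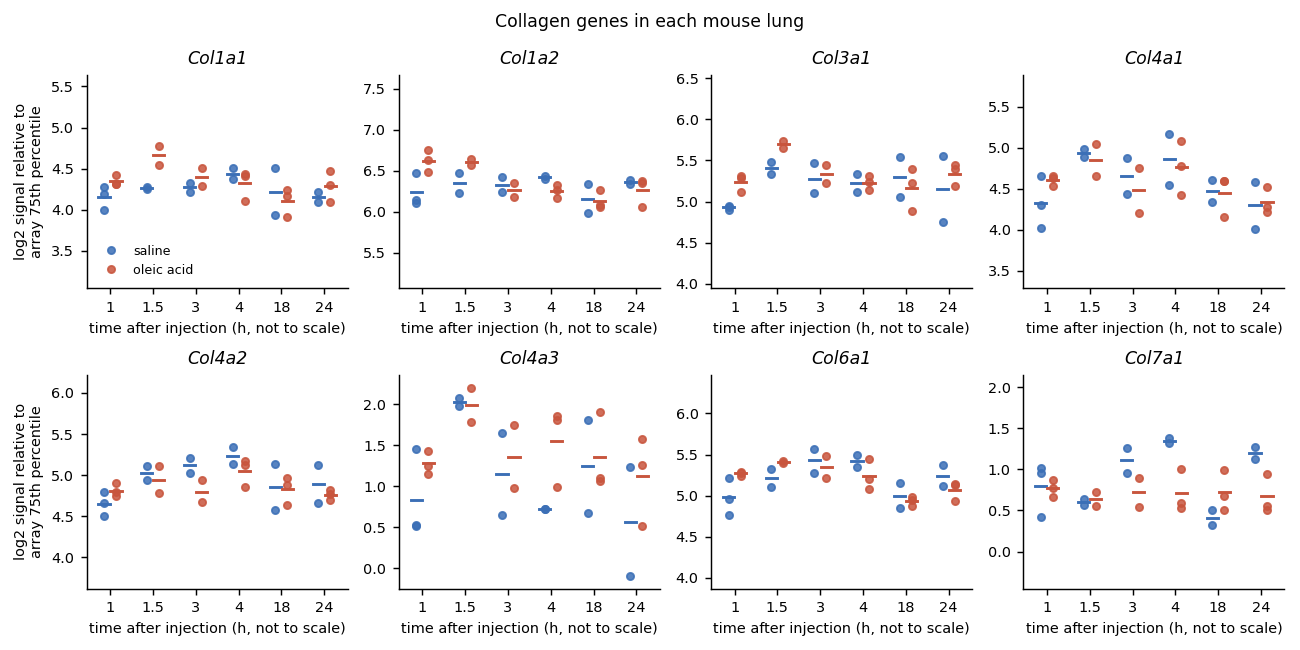
Log2 signal relative to the array's 75th percentile against time after injection (axis not to scale) for 8 collagen genes in each lung. Points are mice, horizontal bars group means of 2 or 3 mice, and every panel spans the same range; most saline and oleic acid points overlap, and Col7a1 in saline falls from 1.32 and 1.38 at 4 h to 0.50 and 0.32 at 18 h.

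More features were called between times than between treatments, although time coincides with slide in most of the design. Late lungs (18 and 24 h) were compared with early lungs (1 to 4 h) within each treatment. In oleic acid lungs 1 member passed, Col6a1, which was lower late. This is 1 of 29 members, against 5.82% of all features called (3.56% lower and 2.26% higher), and 7 members had an unadjusted p under 0.05, against 20.8%. In saline lungs 0 members passed, against 2.95% of features, and 2 had an unadjusted p under 0.05, against 15.3% of features. Counts of 1 and 0 among 29 members are too small to tell the family apart from all features.

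Col6a1 encodes the first chain of type VI collagen, which forms beaded filaments around cells and basement membranes. Its probe lies at chr10:76171538-76171597 on the minus strand of mm9. In oleic acid lungs the levels were 5.24, 5.27 and 5.29 at 1 h, 5.40 and 5.42 at 1.5 h, 5.22 and 5.48 at 3 h and 5.20, 5.44 and 5.08 at 4 h. They were 4.95, 4.87 and 4.98 at 18 h and 4.94, 5.13 and 5.14 at 24 h. All late lungs except 2 at 24 h lay below every early lung.

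The fall of Col6a1 in oleic acid lungs was 0.32 log2 units, or 1.25-fold (95% interval -0.50 to -0.13, adjusted p = 0.0375, limma with Benjamini-Hochberg adjustment). In saline lungs its levels were 4.77, 4.96 and 5.22 at 1 h, 5.32 and 5.11 at 1.5 h, 5.28 and 5.57 at 3 h, 5.50 and 5.35 at 4 h, 5.15 and 4.85 at 18 h and 5.12 and 5.37 at 24 h. The saline difference was -0.14 (-0.35 to 0.08, adjusted p = 0.612), and the test of the difference between the treatments gave -0.18 (-0.46 to 0.10, adjusted p = 1.00). All late oleic acid lungs lay on slide 4, which held no early lung, so time and slide cannot be told apart in this arm.

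The call of Col6a1 was close to the threshold. It was lost under 6 of 15 other settings, with values from -0.37 to -0.20. It was also lost without any single oleic acid array other than 1 h replicate 2, 3 h replicate 1 and 4 h replicates 1 and 3, where values ran from -0.33 to -0.28 and adjusted p from 0.0517 to 0.12.

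The other type VI chain, Col6a2, had a late difference of 0.04 in oleic acid lungs (-0.23 to 0.30, adjusted p = 0.917). The next members by unadjusted p there were Col4a6, a type IV chain (-0.26, adjusted p = 0.0596), and Col5a1, a chain of the fibril-nucleating type V (-0.26, adjusted p = 0.0827). Col4a6 ran from 0.50 to 0.82 (median 0.66) early and from 0.21 to 0.61 (median 0.46) late. Col5a1 ran from 1.41 to 2.00 (median 1.71) early and from 1.29 to 1.61 (median 1.44) late. Both ranges overlapped between early and late lungs.

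Basement membrane chains lay lower late in both treatments as a class, without single calls. In oleic acid lungs all 8 of the class had differences below zero, from -0.36 (Col4a5) to -0.03 (Col15a1), with a median of -0.22. This count rests on the brightest probes. For Col4a4 that probe gave -0.18 (-0.43 to 0.06), and the others -0.04 (-0.48 to 0.40) and 0.06 (-0.58 to 0.71). With the mean over probes 0 of 8 lay above zero. In saline lungs 7 of 8 were below zero, from -0.32 (Col4a4) to 0.08 (Col15a1), with a median of -0.18. The medians of all features were -0.03 and 0.00. Counting the main one, the class median stayed below zero under all 16 settings in each treatment. It ran from -0.28 to -0.13 in oleic acid and from -0.45 to -0.12 in saline lungs. Some settings alter only p-values or left these medians at -0.22 and -0.18. Smooth muscle markers lay lower late as well, with 0 of 6 tested above zero in either treatment and medians of -0.21 in oleic acid and -0.22 in saline lungs. Other lists lay lower late too, so this was not particular to the class. Of 18 other basement membrane proteins 3 lay above zero in oleic acid and 6 in saline lungs, with medians of -0.17 and -0.09. Of 13 genes of the TGF-beta pathway these numbers were 3 and 2, with medians of -0.19 and -0.16. Of 7 heart muscle markers they were 2 and 1, with medians of -0.18 and -0.14. Of 5 alveolar type 2 markers they were 2 and 4, with medians of 0 and 0.04. Of 8 endothelial markers 5 lay above zero in oleic acid and 4 in saline lungs, with medians of 0.09 and -0.03. Of 10 fibroblast markers 3 and 4 lay above zero, with medians of -0.13 and -0.07. Of 4 tested red cell precursor markers 0 lay above zero in either treatment. The part of these lists in the class values was not tested.

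The fibrillar class differed in direction between its members. In both treatments Col5a2, Col5a3 and Col27a1 had positive late differences and Col1a1, Col1a2 and Col5a1 negative ones. The medians were -0.08 in oleic acid and 0.06 in saline lungs, the latter -0.21 with arrays centred on their median, where the median of all features moves from 0.00 to -0.27. The fibrillar median exceeded the basement membrane median by 0.14 in oleic acid and by 0.24 in saline lungs. With the fibrillar list cut to Col1a1, Col1a2, Col3a1, Col5a1 and Col5a2 these values were -0.02 and 0.11, so the excess in oleic acid lungs was not present without Col5a3, Col11a2 and Col27a1.

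**Figure D3:**
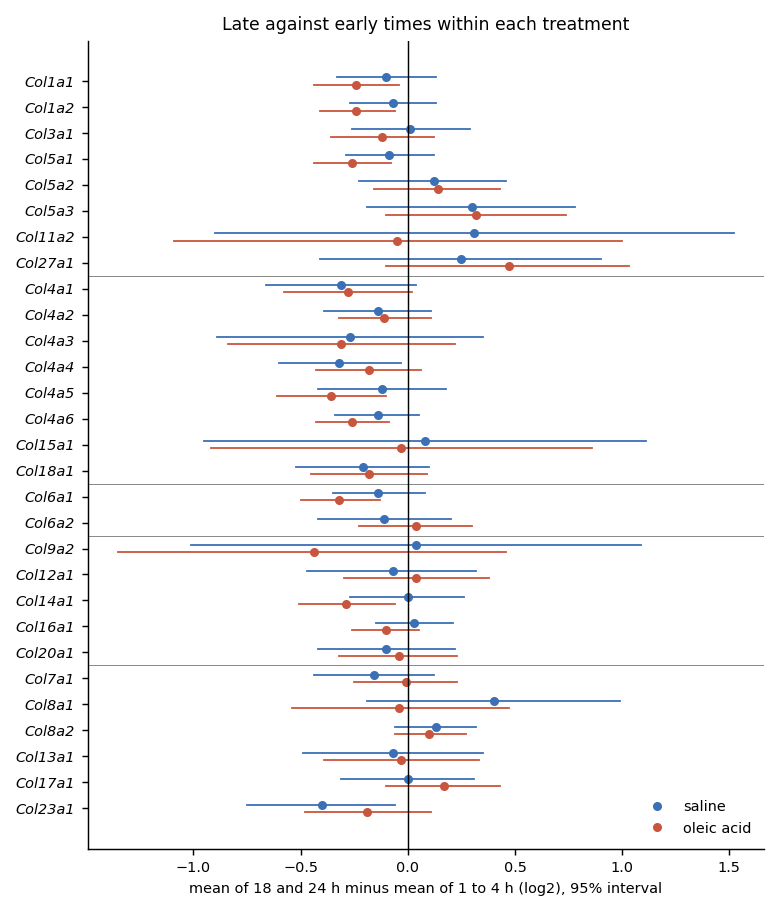
Mean of 18 and 24 h minus mean of 1 to 4 h on the log2 scale for the 29 collagen genes in saline (blue) and oleic acid (red) lungs, with moderated 95% intervals. Horizontal lines divide, from the top, fibrillar, basement membrane, beaded filament, fibril-associated and other collagens; all 8 basement membrane genes lie below zero in oleic acid lungs and 7 of 8 in saline lungs.

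The same contrast was followed lung by lung, as the mean deviation of each class from its members' own means. At 4 h the fibrillar minus basement membrane value was -0.51 and -0.02 in saline and -0.42, -0.21 and -0.22 in oleic acid lungs. At 18 h it was 0.14 and 0.18 in saline and 0.18, 0.21 and 0.09 in oleic acid lungs. The 5 lungs at 4 h thus lay between -0.51 and -0.02 and the 5 at 18 h between 0.09 and 0.21, without overlap and alike in both treatments. Saline lungs of both times shared slide 3. Oleic acid lungs lay on slide 3 at 4 h and on slide 4 at 18 h, so time and slide cannot be told apart there. The choice of 4 h and 18 h was not planned, and other times separated too. At 1.5 h the value ran from -0.08 to -0.04 in saline and from -0.12 to 0.08 in oleic acid lungs. At 3 h it ran from -0.14 to -0.09 and from -0.13 to 0.05. All lungs of these times also lay below those of 18 h. At 24 h it ran from 0.04 to 0.35 and from 0.02 to 0.18, above all 4 h lungs. Saline lungs at 1 h alone ran from -0.17 to 0.37. The highest values at 18 h in each arm, 0.18 and 0.21, came from arrays of high detection (77.5% and 82.4%). With 5 fibrillar and 6 type IV chains only, the ranges were -0.44 to 0.13 at 4 h and -0.21 to 0.29 at 18 h and overlapped. The separation was thus not present without Col5a3, Col11a2, Col27a1, Col15a1 and Col18a1.

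**Figure D4:**
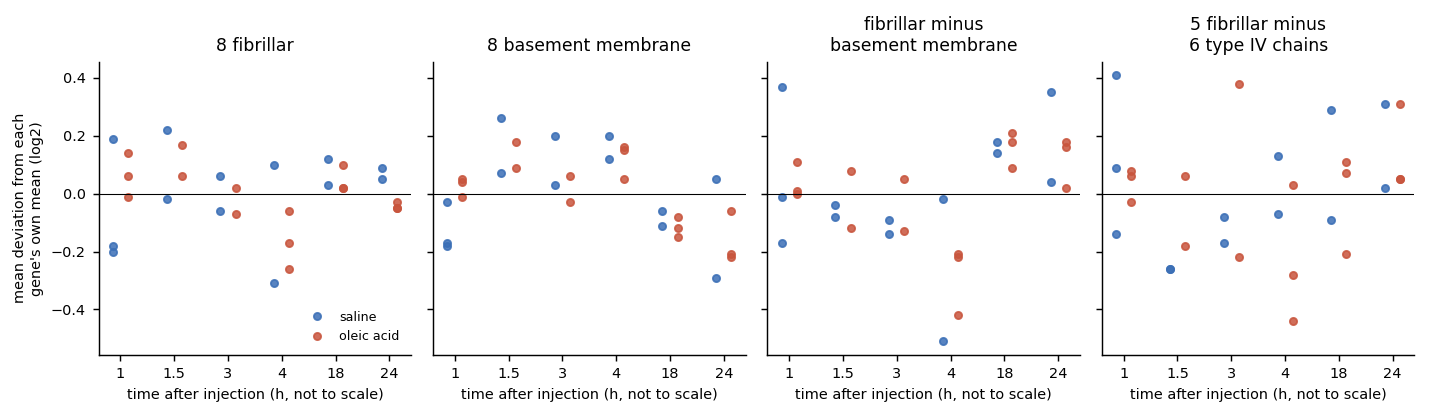
Mean log2 deviation of each lung from the members' own means, against time after injection (axis not to scale), for 8 fibrillar genes, 8 basement membrane genes, their difference, and the difference with 5 fibrillar and 6 type IV chains. Points are mice; in the panel of the difference over all 16 genes the lungs at 4 h lie between -0.51 and -0.02 and those at 18 h between 0.09 and 0.21, and in the panel of 11 genes these times overlap.

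Array quality touched the dim members. Of the 5 members with a mean log2 level below -2, 4 had a higher median on the 5 arrays of high detection (over 70%) than on the other 24, with a median difference of 0.69. Col11a2 stood highest, with a difference of 2.04. Of the 24 brighter members 6 had a higher median there, with a median difference of -0.16. The part of this in the results on dim members was not tested.

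Within slide 3 the saline lungs of 18 h were compared with those of 4 h. Col7a1 was the 1 member called, among 7.24% of all features (5.34% lower and 1.90% higher). An unadjusted p under 0.05 was reached by 6 members, against 24.4%. Col7a1 encodes the single chain of type VII, the anchoring fibril collagen, and its probe lies at chr9:108886861-108886920 on the plus strand of mm9. In saline lungs its levels were 0.95, 1.02 and 0.42 at 1 h, 0.57 and 0.64 at 1.5 h, 0.96 and 1.26 at 3 h and 1.32 and 1.38 at 4 h. They then were 0.50 and 0.32 at 18 h and 1.27 and 1.13 at 24 h. The lowest lungs were those of 18 h and 1 of 1 h, with the 1.5 h lungs next.

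Col7a1 fell by 0.94 log2 units between 4 and 18 h in saline lungs, or 1.92-fold (95% interval -1.40 to -0.48, adjusted p = 0.0159). The call was lost without saline 4 h replicate 1 (-0.97, adjusted p = 0.0603), without replicate 2 of that group (-0.91, 0.0721) and without saline 18 h replicate 2 (-0.85, 0.132), which has 77.5% of spots above background. The 24 h lungs, on slide 4, lay near those of 3 h. Over all 6 saline times an F test called Col7a1 alone of the family (adjusted p = 0.0445), against 5.6% of all features, with 5 members and 25.3% of features at an unadjusted p under 0.05, and 18 of 29 omissions of 1 array left 0 members called.

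In oleic acid lungs Col7a1 varied less. Its levels were 0.87, 0.77 and 0.66 at 1 h, 0.55 and 0.73 at 1.5 h, 0.54 and 0.90 at 3 h, 0.59, 1.00 and 0.53 at 4 h, 0.99, 0.68 and 0.50 at 18 h and 0.56, 0.94 and 0.51 at 24 h. Oleic acid minus saline was -0.65 at 4 h (adjusted p = 0.609), 0.31 at 18 h (1.00) and -0.53 at 24 h (0.806). At 4 and 24 h all oleic acid lungs lay below both saline lungs. Whether the change from 4 to 18 h differed between treatments was not tested. The F test over oleic acid times called 0 members, against 5.49% of features, with 8 members and 21.2% of features at an unadjusted p under 0.05.

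The other members with small p in the saline comparison were Col16a1 and Col27a1. Col16a1 stood at 3.79 and 3.86 at 4 h and at 3.57 and 3.32 at 18 h (difference -0.39, adjusted p = 0.104). Its 3 probes did not agree in sign there, with values 1.55 apart. The dimmest (level -3.27) gave 0.83 (-0.81 to 2.46), and the others -0.39 (-0.69 to -0.08) and -0.73 (-1.22 to -0.24). For Col4a4 the brightest probe gave -0.47 (-0.95 to 0), and the others -1.26 (-2.10 to -0.41) and -1.30 (-2.54 to -0.06). These intervals of single probes were not adjusted over features. Col27a1, a fibrillar collagen of cartilage and lung, stood at -3.63 and -2.01 at 4 h and at -1.71 and -1.15 at 18 h (1.39, adjusted p = 0.107), and at 0.49 with normexp background correction. Without saline 4 h replicate 1 its difference was 0.58 (adjusted p = 0.608), and without replicate 2 it was 2.20 and called (0.0369). The basement membrane median was -0.31 in this comparison, with 7 of 8 below zero, and the fibrillar median 0.11. Late oleic acid lungs of 24 h against 18 h gave 0 members and 0% of features, with 4 members at an unadjusted p under 0.05 against 2.17%.

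In saline lungs Col8a2, a chain of the hexagonal network of type VIII, followed Col7a1 and Col16a1 by p over time (adjusted p = 0.11). Its levels were -0.92, -0.80 and -0.73 at 1 h, -0.34 and -0.38 at 1.5 h, -0.51 and -0.31 at 3 h, -0.45 and -0.77 at 4 h, -0.37 and -0.27 at 18 h and -0.48 and -0.55 at 24 h. The 1 h lungs lay below all later ones except 1 at 4 h.

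Col6a1 varied together with Col6a2 from lung to lung, and Col4a1 with Col4a2. Each lung's deviation from its group mean was correlated over the 29 arrays, with permutation within groups (100000 resamples) and adjustment over 6 pairs. For Col6a1 and Col6a2 Pearson's r was 0.74 (p = 0.00039, adjusted 0.00234) and Spearman's rho 0.75 (p = 0.00044). For Col4a1 and Col4a2 r was 0.72 (p = 0.00262, adjusted 0.00786) and rho 0.74 (p = 0.00243). Without the 2 arrays farthest from the median on the first gene, r was 0.72 and 0.79. Within the 4 slides r was 0.71, 0.68, 0.80 and 0.79 for type VI and 0.74, 0.94, 0.51 and 0.89 for type IV. In a group of 2 lungs the deviations mirror each other, so the 29 points are not independent. A slide of 6 to 8 lungs thus holds few independent values.

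**Figure D5:**
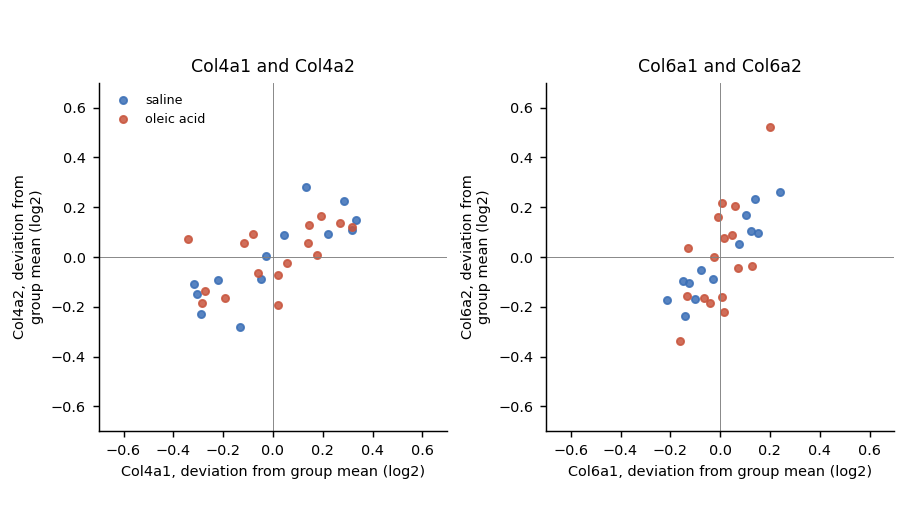
Deviation of each lung from its group mean (log2), for Col4a2 against Col4a1 and Col6a2 against Col6a1, in 13 saline and 16 oleic acid lungs. Points rise together in both panels, with r = 0.72 for the type IV and r = 0.74 for the type VI chains.

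The other 4 pairs, 3 of fibrillar chains and the type IV pair Col4a3 and Col4a4, were less uniform. Col3a1 and Col1a1 gave r = 0.59 (permutation p = 0.00949, adjusted 0.019) and rho = 0.54 (permutation p = 0.0255, adjusted 0.051), with r = 0.66 without the 2 farthest arrays and 0.35, 0.68, 0.65 and 0.65 within slides. Col1a1 and Col1a2, which form 1 molecule, gave r = 0.56 (permutation p = 0.0483, adjusted 0.0724) and rho = 0.49, with -0.13 within slide 2 and 0.61, 0.65 and 0.84 within the others. Col4a3 and Col4a4 gave r = 0.47 (permutation p = 0.0769, adjusted 0.0923) and rho = 0.42. Col5a1 and Col5a2 gave r = -0.08 (permutation p = 0.721, adjusted 0.721) and rho = -0.05, although they too share a molecule.

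All 406 pairs of members had a median r of 0.03, from -0.85 to 0.74, and 4 pairs reached 0.7. Besides both chain pairs above these were Col4a5 with Col12a1 (0.73) and Col1a2 with Col4a2 (0.72). Among 23198 other features, Col6a2 ranked 44th by its r with Col6a1, and Col6a1 162nd by its r with Col6a2. Col4a2 ranked 955th for Col4a1, and Col4a1 61st for Col4a2. Fibrillar chains ranked as high, with Col1a1 36th for Col3a1 and Col3a1 46th for Col1a1. Col1a2 ranked 76th for Col1a1, and Col1a1 650th for Col1a2. For Col4a3 and Col4a4 the ranks were 3692 and 2205, and for Col5a1 and Col5a2 14599 and 13596. The lungs share the scaling of their array. With arrays centred on their median all 6 pairs gave r from 0.81 to 0.97, and with all 31 arrays Col6a1 and Col6a2 gave 0.38 (adjusted p = 0.53).

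The genes for both pairs are neighbours, and the stretches before their starts were read from the RefSeq promoter windows (GRCm38.p6), which hold 24 of the 29 members. Col4a1 starts at position 11312826 of chromosome 8 on the minus strand and Col4a2 at 11312805 on the plus strand, 21 bases apart and head to head. Below stand the 250 bases before the start of both type VI chains, which moved together, of Col7a1, which was called in saline lungs, and of Col3a1 as a fibrillar chain. They are written 5′ to 3′ on the strand of the gene. Capitals mark 3 motifs searched on both strands. The first is the GC box GGGCGG. The second is the CCAAT box, spelled as its name. The third is the TATA motif TATAAA. Matches in the printed windows did not overlap each other. The windows lie at chr10:76726045-76726294 (minus strand), chr10:76623631-76623880 (minus), chr9:108953336-108953585 (plus) and chr1:45311288-45311537 (plus).
Col6a1: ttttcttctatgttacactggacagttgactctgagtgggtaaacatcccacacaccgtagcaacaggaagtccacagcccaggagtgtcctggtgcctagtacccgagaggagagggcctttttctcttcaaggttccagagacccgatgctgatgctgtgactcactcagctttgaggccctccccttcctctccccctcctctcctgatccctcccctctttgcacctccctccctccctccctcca
Col6a2: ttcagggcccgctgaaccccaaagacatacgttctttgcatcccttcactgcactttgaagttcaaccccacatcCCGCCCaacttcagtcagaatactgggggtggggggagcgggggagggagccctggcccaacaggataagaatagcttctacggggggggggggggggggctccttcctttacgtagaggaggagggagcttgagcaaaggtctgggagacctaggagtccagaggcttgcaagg
Col7a1: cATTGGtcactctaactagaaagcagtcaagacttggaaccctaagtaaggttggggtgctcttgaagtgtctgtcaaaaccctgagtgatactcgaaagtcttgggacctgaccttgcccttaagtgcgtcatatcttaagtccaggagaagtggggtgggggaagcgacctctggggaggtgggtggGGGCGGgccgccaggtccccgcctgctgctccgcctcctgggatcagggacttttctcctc
Col3a1: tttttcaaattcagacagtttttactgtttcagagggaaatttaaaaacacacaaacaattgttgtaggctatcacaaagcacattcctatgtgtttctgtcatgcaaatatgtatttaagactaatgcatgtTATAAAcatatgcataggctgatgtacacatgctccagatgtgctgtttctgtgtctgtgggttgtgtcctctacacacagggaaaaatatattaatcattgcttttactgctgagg

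The windows of Col6a1 and Col6a2 shared 0 of these motifs, with 0 in the first and 1 GC box in the second. That of Col7a1 held 1 GC box and 1 CCAAT box. That of Col3a1 held 1 TATA motif and was poorer in G and C (35.2%, against 56.4% for Col7a1, 56% for Col6a1 and 59.2% for Col6a2). Over all 32851 windows 32.7% held a GC box, 33.8% a CCAAT box and 12.4% a TATA motif. Among the 24 members with a window 16, 9 and 4 held them. A match is a description of letters in this window.

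Among genes that make, crosslink and degrade collagen 0 were called between treatments. Early and late alike, 0 of 30 tested synthesis, folding and crosslinking genes passed, 0 of 16 breakdown genes and their inhibitors, 0 of 9 collagen receptors, 0 of 18 other basement membrane proteins and 0 of 13 genes of the TGF-beta pathway. The background was 0% of features early and late.

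Over time these lists held calls in both treatments. Of the 30 synthesis genes 1 rose and 3 fell late in oleic acid lungs, against 2.26% and 3.56% of features. Bmp1, the protease that trims fibrillar procollagens, fell by 0.96 (SE 0.13, adjusted p = 0.000225). Adamts2, which removes the other propeptide, fell by 0.49 (SE 0.09, adjusted p = 0.00295), and Pcolce, which enhances Bmp1, by 0.34 (SE 0.09, adjusted p = 0.0326). P4ha1, a prolyl hydroxylase subunit that stabilises the helix, rose by 0.36 (SE 0.10, adjusted p = 0.0354). Of the breakdown list Timp3 fell (by 0.46, adjusted p = 0.0052) and of the other basement membrane proteins Lama5 (by 0.42, adjusted p = 0.0163), while receptors and the TGF-beta list gave 0 calls. The omission of 1 array ended the call of P4ha1 in 12 of 29 cases (adjusted p up to 0.0901), of Pcolce in 7 (up to 0.109) and of Lama5 in 2 (up to 0.0651), and those of Bmp1, Adamts2 and Timp3 in 0.

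In late saline lungs 2 of these genes were also called. Bmp1 fell by 0.89 (SE 0.15, adjusted p = 0.00309) and P4ha1 rose by 0.48 (SE 0.11, adjusted p = 0.0278), against 1.5% and 1.45% of features called lower and higher. The call of P4ha1 ended in 6 of 29 omissions (adjusted p up to 0.139). Of the 13 genes of the TGF-beta list 2 fell, among them Ccn2, a matricellular growth factor named Ctgf on the array (by 0.69, adjusted p = 0.0363), whose call ended in 8 of 29 omissions (up to 0.201). Bmp1 levels were 4.58 and 4.71 in saline lungs at 4 h and 3.41 and 3.25 at 18 h, and 4.26, 5.04 and 3.99 in oleic acid lungs at 4 h and 3.39, 3.26 and 3.23 at 18 h. Every 18 h lung lay below every 4 h lung. Its direction held under all 15 other settings in both treatments, with 13 calls in oleic acid and 12 in saline lungs.

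In saline lungs between 4 and 18 h on slide 3, 5 of 30 synthesis genes fell and 1 rose, against 5.34% and 1.90% of features. Bmp1 fell by 1.32, and Fkbp10, a chaperone of procollagen, by 0.96 (adjusted p = 0.00469 and 0.00812). Of the 16 breakdown genes 5 fell and 0 rose, among them the serine protease Fap (by 0.99, adjusted p = 0.00918), the inhibitor Timp2 (by 0.69, 0.0093) and the protease Adamts1 (by 1.65, 0.0179). Of 18 other basement membrane proteins 4 fell, led by the laminin chain Lama5 (by 0.93, adjusted p = 0.00826). Of the 13 TGF-beta genes 2 fell, among them Ccn2 (by 1.23, adjusted p = 0.0169). The 9 collagen receptors gave 0 calls. Several of these calls were lost without 1 lung. Without saline 18 h replicate 2, of high detection, adjusted p was 0.123 for Fkbp10, 0.13 for Lama5, 0.0695 for Fap, 0.111 for Timp2, 0.235 for Adamts1 and 0.123 for Ccn2. The call of Fap also ended without saline 4 h replicate 2 (0.0636), as did that of Adamts1 (-1.05, 0.193), and those of Timp2 (0.0544) and Ccn2 (-0.92, 0.142) without replicate 1 of that group. Bmp1 kept its call in all 29 omissions, with an adjusted p of at most 0.0499.

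Markers of the cells that make collagen gave few calls. The mean deviation of 10 non-collagen fibroblast markers ranged from -0.38 to 0.18 over saline and from -0.26 to 0.21 over oleic acid lungs, and 0 of them passed between treatments early or late, while 1, Npnt, was lower at 18 than at 4 h in saline lungs. Of 6 tested smooth muscle markers Tagln was lower late in oleic acid lungs (-0.37, adjusted p = 0.0495) and at 18 h in saline lungs (-1.05, adjusted p = 0.00782). The smooth muscle values were 0.48 and -0.14 in saline at 4 h and -0.38 and -0.27 at 18 h, beside the fall of Col7a1 and Bmp1. Of 8 endothelial markers Calcrl was higher late (0.63, adjusted p = 0.0109, in oleic acid lungs). In saline lungs its group mean was -0.83 at 4 h and 0.29 at 18 h. Between these saline times 1 of the 8 markers was called higher, while only 2 lay above zero. The part of the cell markers in the results was not tested.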

How the data were processed

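Each of 31 lungs gave 200 ng of RNA for a 1-colour Cy3 array made by Agilent. Feature Extraction 10.5.1.1 is named in the submitters' processing notes. The authors' scanner files give spot intensity, including a processed signal already corrected for background. The deposited value table holds log2 values, and their making is not given in the sources used here.

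Processed signals of 59305 non-control spots were taken as log2 minus the 75th percentile of the array, spots with an outlier flag were dropped and 55681 probes averaged. The brightest probe per gene name was kept. Limma 3.58.1 (R 4.3.3, statmod 1.5.0) fitted 12 group means to 29 arrays. P-values were Benjamini-Hochberg adjusted over 23199 features in each of 15 comparisons. The model was tested on simulated data with independent noise and no slide effect. Changes were put into the less variable features, alike on every oleic acid array. They included 100 4-fold changes. Of 100 2-fold changes between treatments it found 56 at 4 h, 99 over 1 to 4 h and 88 over 18 and 24 h. False calls numbered 9, 10 and 8. These rates can exceed those for the lungs, where few features passed between treatments and the adjusted threshold is therefore stricter. P-values from limma set differences against the spread between single mice within groups. Differences between slides are not part of that spread. The p-values of chain pairs come from permuting lungs within groups.

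Members, classes and companion lists were chosen with earlier results of these data known. Every member could be named. Values for each lung were planned for Col1a1, Col1a2, Col3a1, Col4a1 to Col4a3, Col6a1 and the 3 members with the smallest p in a comparison with a call, and in part are given as ranges. The values of Col9a2, Col14a1 and Col4a4 were chosen after they were seen. The comparison of class values between lungs of 4 h and 18 h was not planned. From companion lists, called members and those with the smallest p could be named. The sources used here give no annotation of mm9, so exons are not stated. A result on 1 companion gene is not reported here. Alternatives are in the closing section.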

Additional observations from a re-analysis of the deposited data

How the results depend on the processing

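With 18 other settings and the omission of each array, the treatment comparisons kept 0 called members, except Col1a2 and Col4a6 at 1 h with array weights (2 members) and Col4a4 at 3 h without oleic acid 3 h replicate 1; omissions gave 0 to 1 there. The member counts over time changed as follows. For late against early oleic acid lungs the count was 0 with quantile normalization (979 features called), median centring (41), the deposited table (985), all 31 arrays (54) and without arrays over 70% above background (787), 2 with that share as covariate (1617) or the replicate block (1336), and 5 with slide as random block (2458, correlation -0.0443) or array weights (3261). Omissions gave 0 to 3. For saline 18 h against 4 h it was 0 with median centring (34), 31 arrays (17) or without the arrays over 70% (266), and 2 with the mean over probes (1478). Omissions gave 0 to 1. The F test over saline times gave 0 with quantile normalization (754), median centring (33), the deposited table (742), the filter on every array of 1 group (1167), 31 arrays (9), without the arrays over 70% (392) and with the covariate (1150), and omissions 0 to 1. The F test over oleic acid times gave 1 with slide as random block (2305) and 11 with array weights (6978), and omissions 0 to 2. The fibrillar minus basement membrane median of late oleic acid lungs was -0.02 with 5 fibrillar chains, and omissions gave 0.04 to 0.28. The other medians moved by less than 1 SD between lungs of a group in this contrast (0.156), and omissions gave -0.06 to 0.14 for oleic acid against saline at 1 to 4 h, -0.12 to 0.02 at 18 and 24 h and 0.16 to 0.29 for late saline lungs. Chain pairs beyond the threshold were added for Col1a1 and Col1a2 with normexp (0.51), quantile normalization (0.55), median centring (0.97) and 31 arrays (0.89), and for Col4a3 and Col4a4 with normexp (0.62), quantile normalization (0.59), median centring (0.81), the deposited table (0.65) and 31 arrays (0.52). Col5a1 and Col5a2 turned to 0.82 with median centring and 0.33 with 31 arrays. Col6a1 and Col6a2 fell to 0.38 with 31 arrays. The causes were not tested. Slide as a fixed term gave no value where time and slide coincide. Same-numbered lungs of both treatments correlated from -0.70 to 0.60 in their deviations from group means (6 of 12 pairs over 0.1), so the numbers were not taken as pairs; the replicate block changed no other call count. Dim genes and groups of 2 or 3 lungs limit the precision, as does the overlap of time with slide.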
